A study of Rattus norvegicus with 24 samples.

Results

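The difference in gene expression between primary rat hepatocytes kept between 2 layers of collagen gel (sandwich) and hepatocytes kept on 1 layer (monolayer) was followed over the first days of culture. The quantity measured was the gap change, which is the change of the sandwich cultures (day 3 minus day 1) minus the change of the monolayer cultures (day 3 minus day 1) on the log2 scale. A positive gap change means that sandwich levels gained on monolayer levels between those days, and a negative one that they lost. The contrast used 12 of the 24 arrays of the study, 3 each of sandwich day 3, sandwich day 1, monolayer day 3 and monolayer day 1, and was tested on all 31042 probe sets that are not array controls. All 24 arrays, which include days 2 and 8, entered the estimate of the spread. All groups were seeded at the same density on type I collagen gel, in DMEM with heat-inactivated fetal bovine serum at 10%, changed daily. To it were added the hormones insulin (0.5 U/mL), hydrocortisone (7.5 μg/mL) and glucagon (14 ng/mL), the growth factor EGF (20 ng/mL), and the antibiotics streptomycin (200 μg/mL) and penicillin (200 U/mL). The second layer was laid on 24 h after seeding. The descriptions of the samples, monolayer ones included, count days from that step, whereas the study's design text speaks of days of culturing, so day 1 may be counted from either. The labels treat the sandwich as the stable positive control and the confluent monolayer as the unstable negative control. Whether the 3 replicates of a group had separate animals or cultures behind them is not stated, so p-values measure the spread between these samples, which may be technical.

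Hepatocytes are the metabolic cells of the liver. They make glucose, urea, bile acids and most plasma proteins, and they clear drugs with cytochrome P450 enzymes and conjugating enzymes. Removed from the liver and put on a stiff or flat support, they are known to spread, to build actin stress fibres and to lose these functions, whereas a collagen overlay is known to keep them polygonal and polarised for longer.

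The gap between the cultures grew in these days. A gap change was called for 2269 of 31042 probe sets (7.31%) at an adjusted p under 0.05 in limma's moderated test with Benjamini-Hochberg adjustment, 1295 positive (4.17%) and 974 negative (3.14%). With each gene read by 1 probe set, 1543 of 14217 genes were called (10.9%), 915 of them positive (6.44%) and 628 negative (4.42%). The median gap change over all genes was 0. The sandwich minus monolayer gap itself was called for 366 genes at day 1 (2.57%), 1233 genes at day 2 (8.67%) and 3229 genes at day 3 (22.7%). The steps from day 1 to day 2 and from day 2 to day 3 were called for 116 genes (0.816%) and 268 genes (1.89%), so that few single-day steps passed a test that many 2-day changes passed.

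Most called genes had no called gap at the start. A gap that was not called may still be present. Apoc2, an apolipoprotein, had a day 1 gap of 0.32 that was not called, although its day 1 arrays did not overlap between cultures. Of the 1543 genes, 1308 (84.8%) had a called gap at day 3 and none at day 1, and are termed opened here, 800 with sandwich gaining and 508 with sandwich losing. Another 103 genes had called gaps of the same sign at both days, larger at day 3, and are termed widened. Of these, 23 were positive and 80 negative. In the other direction, 36 genes had a called gap at day 1 and none at day 3 (closed), and 1 gene, Hspa1a, kept a called but smaller gap (narrowed). In 19 genes the gap was called at both days with opposite signs (reversed), and 76 genes had a called gap change with neither gap called.

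**Figure D1:**
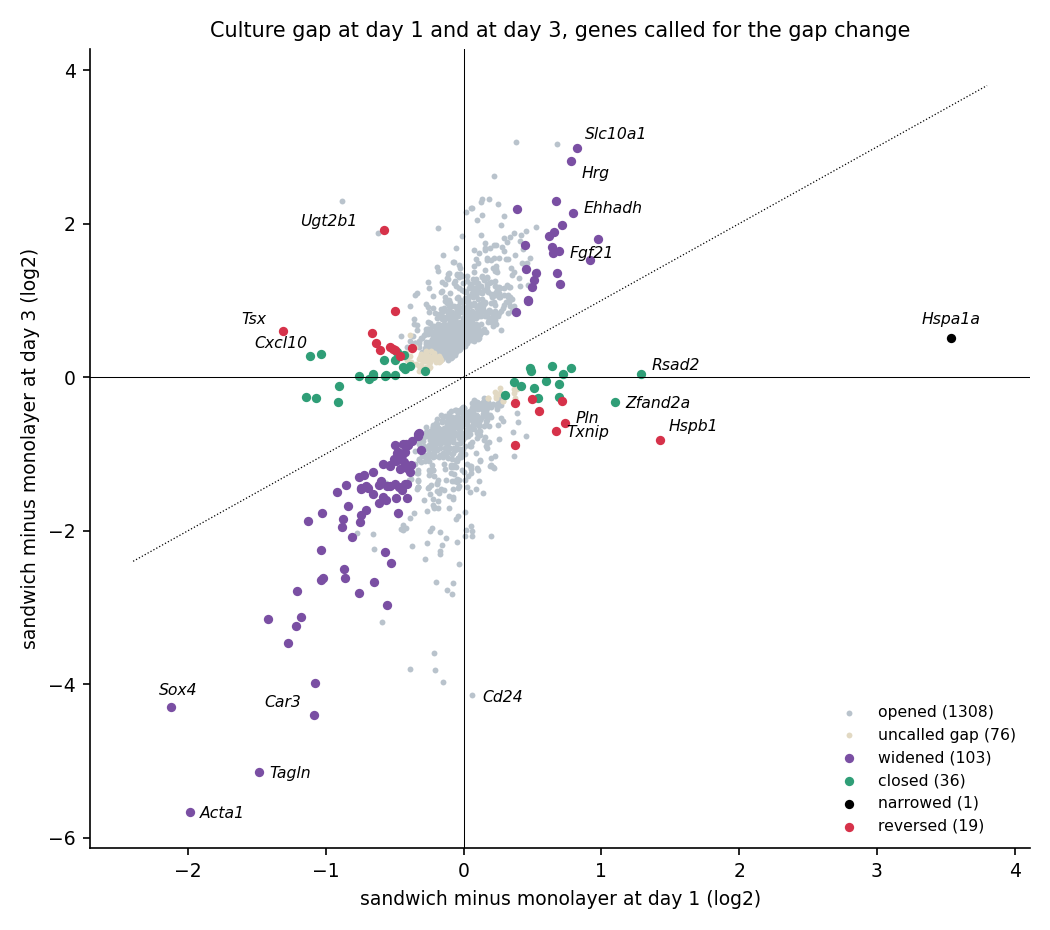
Gap at day 1 (horizontal axis) and gap at day 3 (vertical axis), sandwich minus monolayer on the log2 scale, for the 1543 genes called for the gap change, with 1 point per gene coloured by class and the dotted line marking equal gaps. Most points stand in a column near 0 on the horizontal axis, the widened genes run out to Acta1 at the lower left, Hspa1a stands alone at 3.54 on the horizontal axis, and the 19 reversed genes lie at the upper left and lower right.

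The gap opened from both sides. Of the 1543 genes, 655 (42.4%) had a called change from day 1 to day 3 in monolayer only and 460 (29.8%) in sandwich only. Both cultures changed in opposite directions in 150 genes, 105 of which rose in sandwich while falling in monolayer. Both changed in the same direction, by different amounts, in 228 genes, and neither change was called in 50. For comparison, over all genes tested the change from day 1 to day 3 was called for 2820 genes in sandwich (19.8%) and 3717 genes in monolayer (26.1%). The median absolute change of the called genes was 0.34 in sandwich and 0.45 in monolayer on the log2 scale, and the monolayer change was the larger in 856 of them (55.5%).

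**Figure D2:**
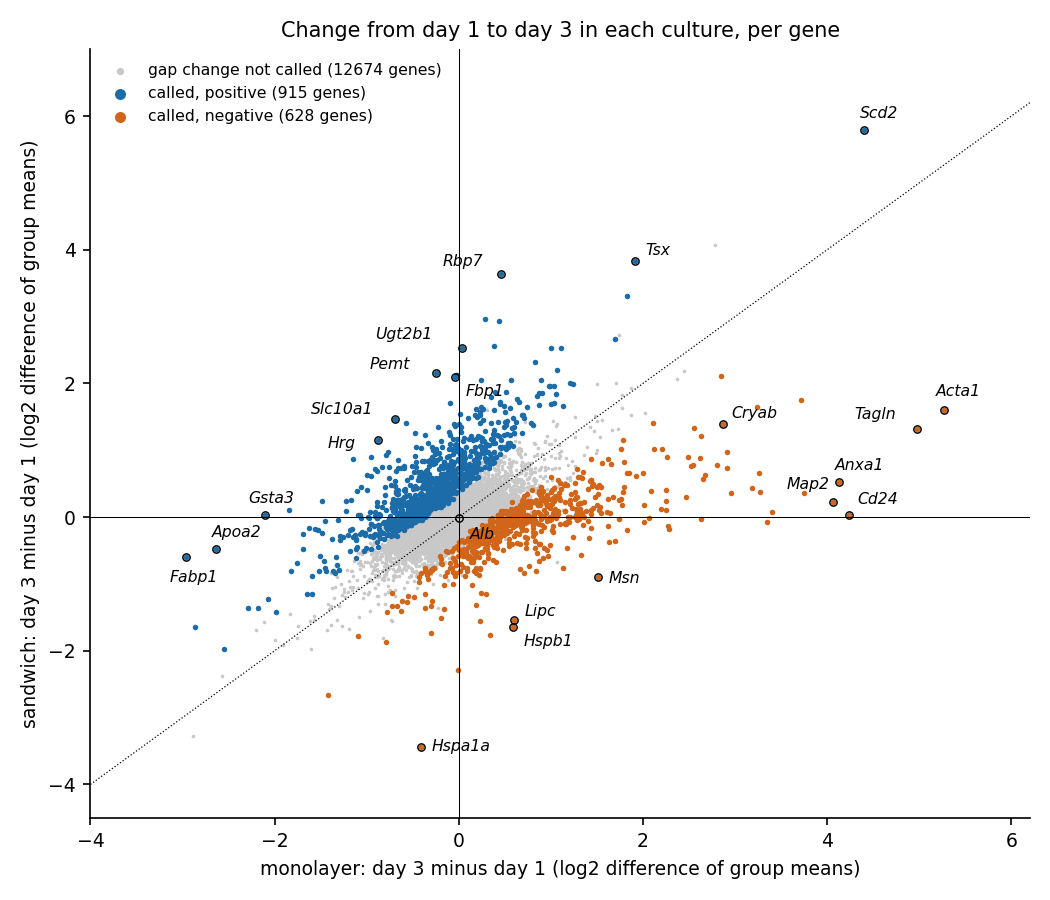
Change from day 1 to day 3 in monolayer (horizontal axis) and in sandwich (vertical axis), as log2 differences of group means, with 1 point per gene. Blue points are the 915 genes with a called positive gap change, orange points the 628 with a called negative one, grey points the rest, and the dotted line marks equal change. Acta1, Tagln and Cd24 lie far right through their monolayer change, Fbp1, Pemt and Ugt2b1 lie straight up through their sandwich change, and Hspa1a lies straight down.

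Arrays of these 4 groups were closely alike. Correlations across probe sets were 0.993 to 0.996 within a group and 0.975 to 0.995 between groups. Beta-actin control probes near the 3' end read above those near the 5' end, a sign of RNA length, by 1.03 in sandwich and 0.81 in monolayer at day 3, and by 0.95 in sandwich and 0.86 in monolayer at day 1 (log2 means). With that difference as a covariate, 2079 probe sets were called for the gap change, against 2269 without it. For the gap at day 3, 4099 probe sets were called with the covariate, against 5133 without it. Of 14 hepatocyte markers, 13 lay above 5.62, the median of all values, in all 4 groups, the exception being Cyp7a1. No fold is given for a gene with a group mean under 5.62, since the background at such levels is unknown. In bulk RNA, fewer cells of a type and less RNA per cell cannot be told apart.

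Many genes of hepatocyte metabolism had a called positive gap change, and in a first group of them it was the sandwich cultures that moved. Fbp1, fructose-1,6-bisphosphatase of glucose synthesis, showed this in its plainest form. At day 3 its log2 levels were 11.51, 11.52 and 11.60 in sandwich against 9.24, 9.61 and 9.31 in monolayer. At day 1 they were 9.33, 9.42 and 9.59 in sandwich against 9.45, 9.43 and 9.41 in monolayer. The 3 sandwich arrays of day 3 stood apart from the other 9, which all overlapped. The gap change was 2.14 (SE 0.141, adjusted p = 4.07e-10), the gap at day 3 was 4.46-fold, and the step was spread over both days, with gaps of 0.01, 1.04 and 2.16 at days 1, 2 and 3.

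The same form was seen in Pemt, which methylates phosphatidylethanolamine to phosphatidylcholine. Its levels at day 3 were 9.60, 9.63 and 9.37 in sandwich against 6.84, 7.04 and 6.84 in monolayer, and at day 1 they were 7.42, 7.20 and 7.49 in sandwich against 7.18, 7.16 and 7.11 in monolayer. Its day 3 gap was 6.16-fold and its gap change 2.40 (SE 0.182, adjusted p = 3.68e-09). Ftcd, which passes the carbon of histidine to folate, and Bbox1, the last enzyme of carnitine synthesis, shared this form. Sandwich rose by 4.36-fold and 4.35-fold, while the monolayer changes of -0.01 and -0.03 were not called.

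In the list of urea cycle and amino acid breakdown genes, 35 of 44 measured members had a called positive gap change and none a negative one. Gap change counts of this and every other list stand against 6.44% of all genes called positive and 4.42% called negative. Counts of members that rose or fell within a culture stand against other shares. From day 1 to day 3, 19.8% of all genes were called in sandwich and 26.1% in monolayer, in either direction. The median gap change was 0.81, made of a median change of 1.01 in sandwich and 0.07 in monolayer. Of the 44 members, 34 rose and 3 fell in sandwich, and 17 rose and 8 fell in monolayer. Cps1, the first enzyme of the urea cycle, rose by 1.85 in sandwich and 0.91 in monolayer. Got1, aspartate aminotransferase, rose by 2.06 in sandwich and 0.57 in monolayer, and Agxt, which detoxifies glyoxylate, by 1.53 in sandwich and 0.23 in monolayer. Cdo1, which starts cysteine breakdown, rose by 1.71 in sandwich, with a monolayer change of -0.09 that was not called. Tat, tyrosine aminotransferase, was a weaker case, with a gap change of 0.57 (adjusted p = 0.0436) that was lost in 10 of 22 alternative analyses, with adjusted p-values between 0.00988 and 0.130.

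Lipid synthesis moved with it. In fatty acid synthesis 17 of 22 members were called positive and none negative, with a median gap change of 0.91 from 0.77 in sandwich and -0.10 in monolayer. In cholesterol synthesis 14 of 20 were called positive and none negative, with a median gap change of 0.72 from 0.61 in sandwich and 0.02 in monolayer. Acss2, which makes acetyl-CoA from acetate, is an example of both cultures moving apart, as it rose by 1.41 in sandwich and fell by 0.58 in monolayer. Its levels at day 3 lay between 10.75 and 11.03 in sandwich against 8.76 and 8.84 in monolayer. Levels at day 1 were 9.60, 9.33 and 9.62 in sandwich against 9.47, 9.32 and 9.38 in monolayer, and overlapped. Srebf1, the regulator of fatty acid synthesis genes, rose by 0.76 in sandwich and fell by 0.51 in monolayer. Elovl6, an elongase, rose by 1.11 and Fads2, a desaturase, by 1.46 in sandwich. Elovl6 fell by 0.33 in monolayer, whereas the monolayer change of Fads2, 0.27, was not called.

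In glucose output, fructose and glycogen metabolism 9 of 16 members were called positive and none negative, with a median gap change of 0.64. Pklr, the liver form of pyruvate kinase, rose by 0.93 in sandwich and fell by 0.79 in monolayer, and Khk, which starts fructose use, rose by 0.73 in sandwich and fell by 0.63 in monolayer. Glycolysis genes outside the liver forms went the other way, with 0 of 16 called positive and 3 negative. Slc2a1, the glucose transporter of most cells outside the liver, fell by 0.81 in sandwich and changed by 0.09 in monolayer. Slc16a3, which exports lactate, and Pfkp, a phosphofructokinase, had gap changes of -0.78 and -1.02. The call of Slc16a3 (adjusted p = 0.0444) was lost in 10 of 22 alternatives, with adjusted p-values between 0.0117 and 0.169.

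In oxidative phosphorylation 19 of 48 members were called positive and none negative. The shifts were small, with a median gap change of 0.33 from 0.27 in sandwich and -0.07 in monolayer. Ndufv2, a complex I subunit, rose by 0.58 in sandwich and fell by 0.21 in monolayer. Of the 48 members, 26 rose and none fell in sandwich, whereas none rose and 9 fell in monolayer.

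Plasma proteins were mixed. Of plasma carriers 13 of 24 were called positive and none negative, and of coagulation and complement genes 15 of 26 and none, with median gap changes of 0.47 and 0.65. The secreted glycoprotein gene Hrg rose by 1.15 in sandwich and fell by 0.88 in monolayer, which widened its gap to 7.03-fold at day 3, against 1.72-fold at day 1. Plg, the precursor of plasmin, rose by 0.48 in sandwich and fell by 0.73 in monolayer. Crp, an acute phase protein, rose in both, by 2.53 in sandwich and 1.11 in monolayer. Alb and Ttr, the thyroxine carrier, did not pass the test, with gap changes of -0.02 (SE 0.091, adjusted p = 0.952) and 0.03 (SE 0.104, adjusted p = 0.944). Ttr rose in both cultures, by 0.81 in sandwich and 0.78 in monolayer. The Alb levels lay between 14.98 and 15.04 on all 12 arrays, close to 15.07, the highest value of the whole table.

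**Figure D3:**
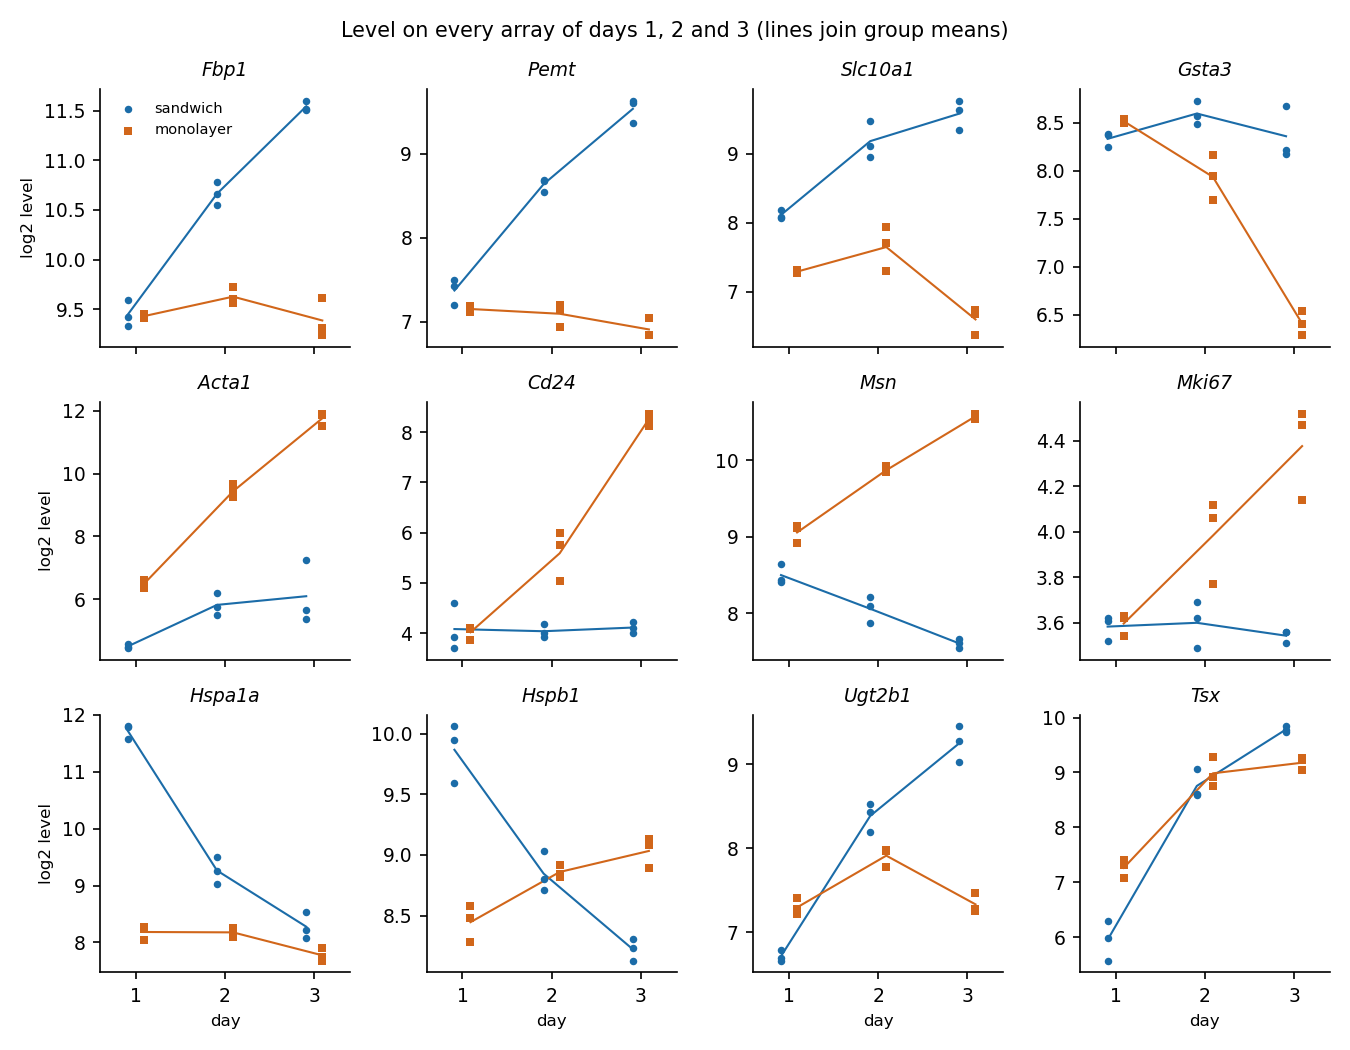
Log2 level on every array of days 1, 2 and 3 for 12 genes, with sandwich as circles, set left, monolayer as squares, set right, and lines through the group means. Fbp1 and Pemt climb in sandwich alone, Gsta3 drops in monolayer alone, Slc10a1 and Msn move apart, Acta1, Cd24 and Mki67 climb in monolayer, Hspa1a drops in sandwich, and the lines of Hspb1, Ugt2b1 and Tsx cross. The vertical axes differ between panels.

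In a second group of liver genes it was the monolayer that moved. Gsta3, a glutathione transferase, had day 3 levels of 8.22, 8.68 and 8.18 in sandwich against 6.40, 6.54 and 6.29 in monolayer. At day 1 the levels were 8.38, 8.25 and 8.37 in sandwich against 8.54, 8.50 and 8.51 in monolayer. Monolayer day 3 stood apart below the other 9 arrays. The fall in monolayer was 4.31-fold (log2 change -2.11), the sandwich change was 0.03, and the gap change was 2.14 (SE 0.205, adjusted p = 1.34e-07).

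Apoa2, a protein of high-density lipoprotein, had day 3 levels of 10.43, 10.32 and 10.13 in sandwich against 8.18, 8.08 and 8.00 in monolayer, while all 6 arrays of day 1 lay between 10.70 and 10.83. It fell in both cultures, by 0.48 in sandwich and by 2.63 in monolayer. Fabp1, the fatty acid carrier of the liver cell, likewise fell by 0.60 in sandwich and by 2.96 in monolayer. Cat, the catalase that breaks down hydrogen peroxide, and Cyp2d2, a cytochrome P450, fell by 1.06 and 1.53 in monolayer, with sandwich changes of -0.02 and -0.19 that were not called. Slc27a5, which activates bile acids for conjugation, fell by 1.84 in monolayer with a sandwich change of 0.11.

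In some lists the monolayer median lay further from 0 than the sandwich median. Hepatic transporters had 14 of 34 members called positive and 1 negative, with medians of 0.12 in sandwich and -0.28 in monolayer. Iron and heme genes had 7 of 18 called positive and none negative, with medians of 0.10 in sandwich and -0.35 in monolayer. Hjv, a co-receptor of hepcidin control, rose by 0.70 in sandwich and fell by 0.88 in monolayer. Tfr2, the iron-sensing transferrin receptor, and the iron exporter Slc40a1 fell by 0.59 and 0.44 in monolayer. Genes of the oxidative stress response had 7 of 29 called positive and none negative, and both cultures had negative medians, -0.39 in sandwich and -0.65 in monolayer.

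Bile acid handling showed how far the cultures had parted by day 3. Slc10a1, the sodium-dependent importer of bile acids, had levels of 9.64, 9.77 and 9.34 in sandwich against 6.68, 6.37 and 6.74 in monolayer at day 3. At day 1 they were 8.19, 8.08 and 8.07 in sandwich against 7.27, 7.32 and 7.28 in monolayer. All 4 groups were separate, with sandwich rising 2.78-fold and monolayer falling 1.62-fold, and the gap was 7.94-fold at day 3 against 1.77-fold at day 1. Abcb11, the bile salt export pump, fell by 0.68 in monolayer, with a sandwich change of 0.35 that was not called. In the bile acid synthesis list 6 of 16 members were called positive and none negative. Cyp7a1, its rate-limiting enzyme, lay below 5.62 in all 4 groups, with a gap change of -0.01 (adjusted p = 0.99).

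Drug metabolism was less uniform. In phase I 16 of 36 members were called positive and 2 negative, and in phase II 16 of 33 positive and 1 negative, with median gap changes of 0.49 and 0.42. Cyp3a23-3a1, a steroid and drug hydroxylase, rose by 0.86 in sandwich and fell by 1.15 in monolayer. Its relative Cyp3a9 went the opposite way, with a fall of 1.32 in sandwich and a monolayer change of 0.19 that was not called. Sult2a2, a hydroxysteroid sulfotransferase, rose by 2.96 in sandwich, with a monolayer change of 0.28 that was not called. Cyp2e1, which oxidises ethanol, fell nearly alike in both cultures, by 1.32 in sandwich and 1.30 in monolayer, and its gap change was -0.02 (SE 0.26, adjusted p = 0.985).

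Of liver transcription factors and nuclear receptors, 4 of 32 measured members were called positive and 1 negative, against 10.9% of all genes called. Hnf4a, a central regulator of hepatocyte genes, rose by 0.52 in sandwich and changed by -0.01 in monolayer, with a gap change of 0.53 (adjusted p = 0.0192). That call was lost in 4 of 22 alternatives, with adjusted p-values between 0.00418 and 0.0865, and the 2 other Hnf4a probe sets had gap changes of 0.33 and 0.38 that were not called. Klf15, an activator of amino acid breakdown genes, rose by 1.19 in sandwich with a monolayer change of 0.06. Its 2 other probe sets had gap changes of 0.11 and 0.68 that were not called, and the mean over its probe sets gave 0.64 against 1.13. Nr1h4, the bile acid receptor, fell by 0.50 in monolayer. Cebpa did not pass the test, with a gap change of 0.63 (SE 0.342, adjusted p = 0.376).

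**Figure D4:**
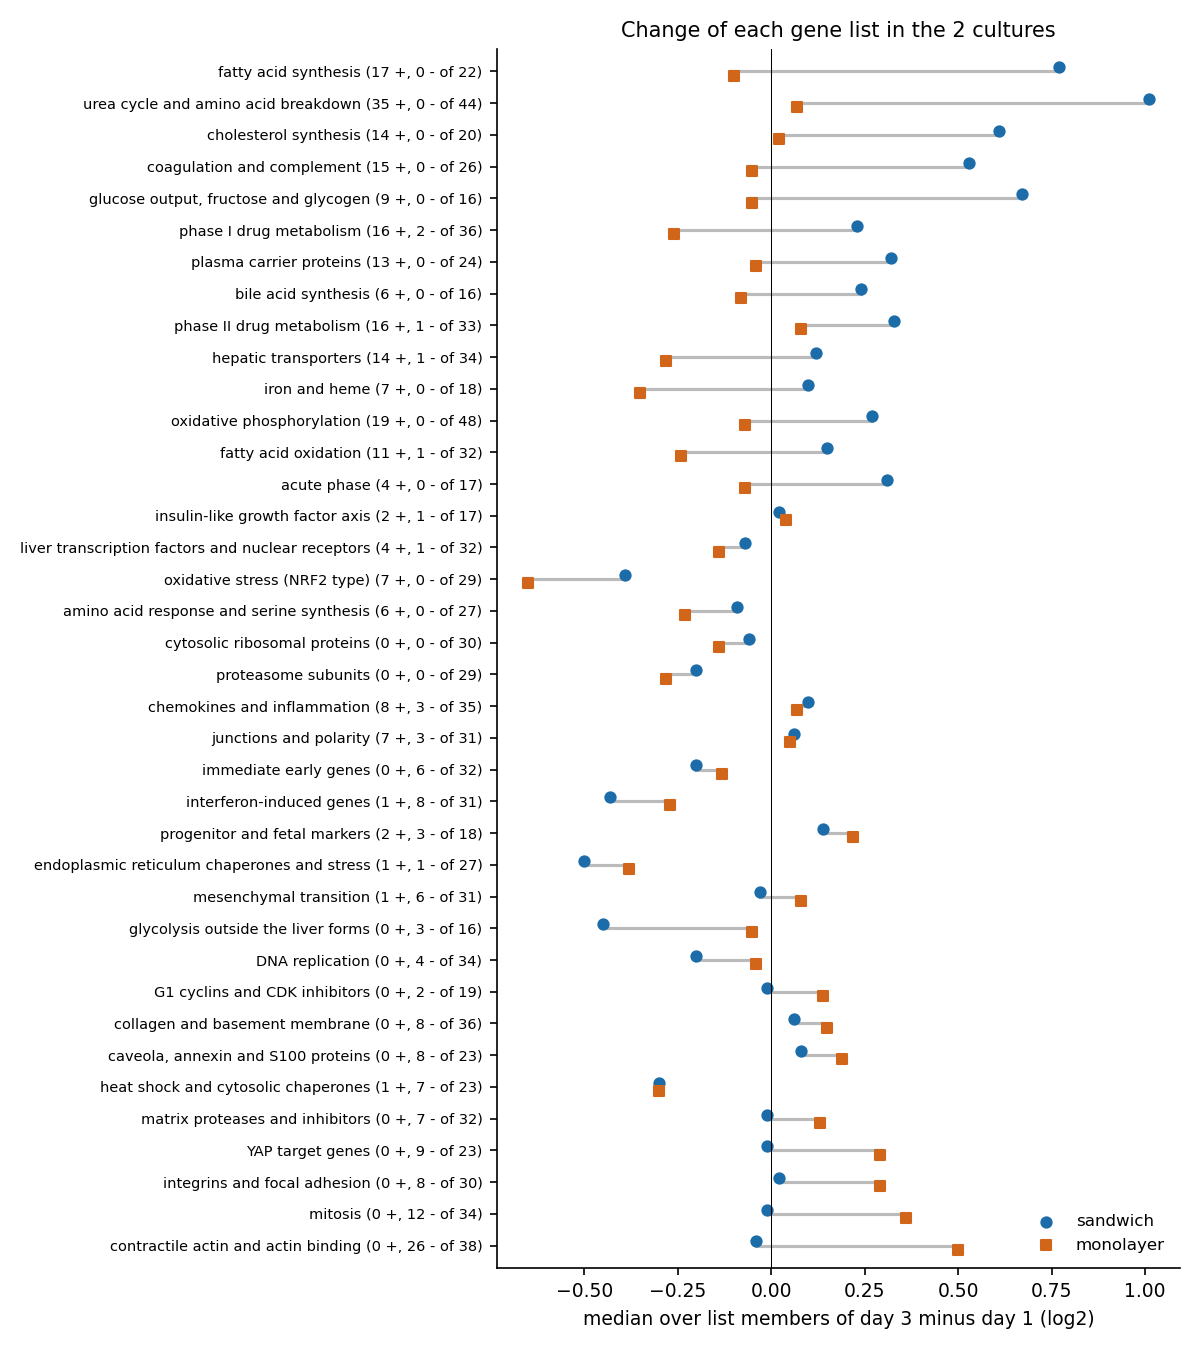
Median over the measured members of each gene list of the change from day 1 to day 3 on the log2 scale, with sandwich as circles, drawn slightly above, and monolayer as squares. Labels give the number of members with a called positive (+) and negative (-) gap change. Fatty acid synthesis, amino acid breakdown, cholesterol synthesis and glucose output have sandwich well to the right of 0 with monolayer near it, while the actin, mitosis, integrin and YAP lists have monolayer to the right with sandwich near 0.

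The negative side was led by the actin cytoskeleton, and there the monolayer moved. Of 38 measured genes for contractile actin and actin-binding proteins, 26 had a called negative gap change and none a positive one. The median gap change of -0.56 came from -0.04 in sandwich and 0.50 in monolayer, and 27 members rose in monolayer while none fell. Acta1, the alpha-actin of skeletal muscle, had day 3 levels of 5.67, 5.36 and 7.25 in sandwich against 11.85, 11.51 and 11.91 in monolayer. At day 1 the levels were 4.57, 4.47 and 4.45 in sandwich against 6.50, 6.35 and 6.60 in monolayer. The 2 cultures did not overlap at either day, the gap stood at -1.99, -3.62 and -5.66 at days 1, 2 and 3, and the gap change was -3.67 (SE 0.418, adjusted p = 1.59e-06). Sandwich day 3 replicate 3 lay above its partners, and without that array the gap change was -4.25. Tagln, an actin-binding protein of smooth muscle, had a gap change of -3.66, and -4.06 without that array. The sandwich day 1 means, 4.50 for Acta1 and 4.83 for Tagln, lay below 5.62. How far they lay above background is unknown.

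The membrane linkers and crosslinkers of actin followed. Msn, moesin, which ties actin to the membrane, moved both ways. Its day 3 levels were 7.55, 7.66 and 7.61 in sandwich against 10.61, 10.57 and 10.54 in monolayer, and its day 1 levels 8.65, 8.41 and 8.44 in sandwich against 9.11, 9.14 and 8.92 in monolayer. Sandwich fell by 0.89, monolayer rose by 1.52, and the gap was 7.84-fold at day 3 against 1.47-fold at day 1, with monolayer higher at both. Flna, filamin, which crosslinks actin, rose by 1.62 in monolayer with a sandwich change of -0.14. Cnn2, a calponin, rose by 1.17 in monolayer and fell by 0.46 in sandwich. Srf, the transcription factor of many actin genes, rose by 0.50 in monolayer, and its gap change of -0.57 (adjusted p = 0.0187) was lost in 5 of 22 alternatives, with adjusted p-values between 0.00147 and 0.190. Its 2 other probe sets had gap changes between -0.23 and -0.06 that were not called, and the mean over probe sets gave -0.29. Acta2, the alpha-actin of smooth muscle, had a gap change of -0.49 (SE 0.37, adjusted p = 0.596).

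The Acta1 promoter is shown because it carries a CArG box, the site known to bind serum response factor, and heads the list. The sequence is the RefSeq reference of GRCr8, chr19:68784195-68784444 on the minus strand, 250 bases before the gene start, read 5′ to 3′ with the CArG box in capitals at bases 94 to 85 before the start.
Acta1: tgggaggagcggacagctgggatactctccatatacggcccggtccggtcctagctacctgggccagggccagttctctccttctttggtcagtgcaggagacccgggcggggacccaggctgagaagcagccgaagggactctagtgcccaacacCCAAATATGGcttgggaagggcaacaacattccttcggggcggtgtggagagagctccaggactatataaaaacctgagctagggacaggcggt
Searched on both strands of the 300-base windows (250 bases before to 50 after the start), the CArG box occurred in 1.6% of 27457 RefSeq windows, in 5 of the 33 actin-list genes with a window (Acta1, Actg1, Cnn2, Lima1 and Srf), in 16 of 521 genes called negative and in 7 of 777 called positive. CATTCC, the TEAD motif, occurred in 13.9% of all windows and in 12 of those 33. It was found in 70 of 521 genes called negative and in 104 of 777 called positive, 13.4% of each. Among the 11734 genes tested that had a window, the CArG box occurred in 1.3% and CATTCC in 11.7%. These are counts of letters, not of bound sites, and Tagln had no window.

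Targets of the cofactor YAP, which is known to be active in spread cells, moved with the actin genes. Of 23 measured members 9 were called negative and none positive, with a median gap change of -0.28. Ccn2, a secreted matrix-associated protein, had day 3 levels of 10.19, 9.92 and 10.26 in sandwich against 12.81, 12.56 and 12.83 in monolayer. At day 1 they were 9.38, 8.96 and 9.32 in sandwich against 10.46, 10.32 and 9.95 in monolayer. The 2 cultures did not overlap at either day, and Ccn2 rose in both cultures, by 0.90 in sandwich and 2.49 in monolayer. Ankrd1, an ankyrin repeat protein, rose by 0.97 in sandwich and 2.92 in monolayer. Its sandwich means, 4.51 at day 1 and 5.49 at day 3, lay below 5.62.

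Some of the largest negative gap changes were of genes with day 1 levels below 5.62 in both cultures. Cd24, a surface protein of progenitor and bile duct cells, had day 3 levels of 4.23, 4.10 and 4.01 in sandwich against 8.37, 8.12 and 8.29 in monolayer. All 6 arrays of day 1 lay between 3.71 and 4.61, so that monolayer day 3 alone stood apart, and the gap change was -4.20 (SE 0.297, adjusted p = 1.18e-09). How far its low levels lay above background is unknown. Of 18 measured progenitor and fetal markers, 2 were called positive and 3 negative. Afp of that list went the other way from Cd24, with a rise of 0.48 in sandwich and a fall of 0.36 in monolayer. The bile duct markers Krt19 and Krt7 were not called, with gap changes of -0.105 and -0.259. Map2, a microtubule protein best known from neurons, rose by 4.06 in monolayer, but its other probe set had a gap change of -0.40 that was not called, and the mean of both gave -2.11 against -3.83. Anxa1, a calcium-dependent membrane-binding protein, rose by 0.52 in sandwich and 4.13 in monolayer, while Marcksl1, a membrane and actin regulator with higher levels, rose 10.2-fold in monolayer with a sandwich change of -0.07.

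Others had a gap from the start. Car3, a carbonic anhydrase, rose 10.5-fold in monolayer, and its gap was 21.2-fold at day 3 against 2.12-fold at day 1, with monolayer higher at both. Cav1, caveolin of the membrane pits, rose by 3.27 in monolayer with a sandwich change of 0.37, and its lowest group mean was 4.75. Sox4, a transcription factor of progenitor cells, rose by 2.47 in monolayer with a sandwich change of 0.29, and its gap was 19.7-fold at day 3 against 4.36-fold at day 1, again with monolayer higher. Its 6 other probe sets had gap changes between -2.13 and 0.19, and 3 of them were called, all negative. The mean over probe sets gave -1.24 against -2.18. Among the 15 largest negative changes, the Myof levels of the 2 cultures were likewise apart at day 1, whereas those of Rgs2, Bhlhe41, Igfbp7, Cpe and Plscr2 overlapped. The gap changes of these 6 genes lay between -3.38 and -2.46, and they rose by 2.28 to 3.74 in monolayer. Each of them had a group mean under 5.62.

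Matrix and adhesion genes had negative calls as well. Integrins and focal adhesion genes had 8 of 30 members called negative, collagens and basement membrane genes 8 of 36, matrix proteases and their inhibitors 7 of 32, and none of these lists had a positive call. Timp1, an inhibitor of matrix proteases, rose by 0.35 in sandwich and 1.51 in monolayer. Lox, which crosslinks collagen, rose by 1.63 in monolayer with a sandwich change of -0.37 that was not called. Col1a1, a chain of type I collagen, had a gap change of 0.14 (SE 0.203, adjusted p = 0.834). Of mesenchymal genes 6 of 31 were called negative and 1 positive. Vim, vimentin, rose in both cultures, by 1.21 in sandwich and 2.63 in monolayer, and Cd44, the hyaluronan receptor, fell by 0.54 in sandwich and rose by 0.32 in monolayer. Lamb3, a laminin chain, differed in that sandwich moved, with a fall of 1.51 and a monolayer change of -0.19.

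In the mitosis list the called changes were all negative. Of 34 measured members 12 were called negative and none positive, and the medians of the changes were -0.01 in sandwich and 0.36 in monolayer. No member rose in sandwich, 2 fell there, and 16 rose in monolayer. Mki67, the proliferation marker, had day 3 levels of 3.56, 3.51 and 3.56 in sandwich against 4.14, 4.52 and 4.47 in monolayer, and all 6 arrays of day 1 lay between 3.52 and 3.63. Monolayer day 3 alone stood apart, and the gap change was -0.82 (SE 0.144, adjusted p = 0.000433). All 4 group means of Mki67 lay below 5.62. Ube2c, which acts in the exit from mitosis, rose by 1.16 in monolayer with a sandwich change of 0.09. Stmn1, a microtubule destabiliser, rose by 1.33 in monolayer and fell by 0.57 in sandwich. Of DNA replication genes 4 of 34 were called negative and none positive, near the 10.9% of all genes called in either direction. The median change of that list was -0.20 in sandwich and -0.04 in monolayer. Pcna, the clamp of DNA polymerase, fell by 0.69 in sandwich with a monolayer change of -0.10. Ccnd1, the G1 cyclin, rose in both cultures, by 1.32 in sandwich and 1.73 in monolayer, with a gap change of -0.42 (SE 0.23, adjusted p = 0.394). Its 2 other probe sets had gap changes of -0.58 and -0.56, and 1 of them was called.

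The Mki67 promoter is shown for CCAAT, the site of the factor NF-Y that is known from many cell cycle promoters. It is the RefSeq sequence of GRCr8, chr1:199952594-199952843 on the minus strand, 250 bases before the start, 5′ to 3′, with 4 matches (CCAAT, or ATTGG on the other strand) in capitals.
Mki67: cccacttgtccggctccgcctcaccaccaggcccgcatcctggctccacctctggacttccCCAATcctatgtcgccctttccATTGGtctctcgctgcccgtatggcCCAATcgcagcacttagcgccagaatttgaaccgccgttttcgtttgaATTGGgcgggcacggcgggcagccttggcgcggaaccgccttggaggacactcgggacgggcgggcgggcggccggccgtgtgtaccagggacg
CCAAT occurred on either strand in 22 of the 29 mitosis genes with a window (75.9%), against 37.7% of all 27457 windows and 37.3% of those of genes tested. Genes called negative had it in 38.0% of windows and genes called positive in 41.1%. Matches were found in members that were called and in members that were not, such as Kif11 and Ttk. 

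Of the 8 called heat shock and chaperone genes, 3 opened, 1 widened, 1 narrowed, 1 closed and 2 reversed. Hspa1a, the inducible HSP70 chaperone, had day 1 levels in sandwich far above every other group. At day 3 its levels were 8.21, 8.54 and 8.08 in sandwich against 7.74, 7.68 and 7.90 in monolayer, and at day 1 they were 11.80, 11.58 and 11.78 in sandwich against 8.27, 8.24 and 8.04 in monolayer. The groups did not overlap at either day, and the gap was 1.42-fold at day 3 against 11.6-fold at day 1. Most of the fall was over by day 2, when the sandwich arrays read 9.51, 9.25 and 9.03 against 8.09, 8.19 and 8.25 in monolayer. The gap change was -3.04 (SE 0.188, adjusted p = 2.34e-10). Sandwich fell by 3.44 and monolayer by 0.41.

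Hspb1, the small heat shock protein HSP27, crossed over. At day 3 its levels were 8.13, 8.31 and 8.23 in sandwich against 9.08, 8.89 and 9.13 in monolayer, and at day 1 they were 10.06, 9.59 and 9.95 in sandwich against 8.58, 8.48 and 8.28 in monolayer. Sandwich was the higher at day 1 by 2.68-fold and the lower at day 3 by 1.76-fold, with no overlap at either day. The gaps at days 1, 2 and 3 were 1.42, -0.02 and -0.81, and the gap change was -2.24 (SE 0.164, adjusted p = 2.12e-09). Zfand2a, a zinc finger protein induced by heat and arsenite, had a gap of 1.10 at day 1 that closed, with -0.33 at day 3 not called (adjusted p = 0.0973). Cryab, a small heat shock protein of muscle and lens, rose in both cultures, by 1.39 in sandwich and 2.87 in monolayer.

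The Hspb1 promoter is shown for the heat shock element core GAANNTTC. It is the RefSeq sequence of GRCr8, chr12:26432302-26432551 on the minus strand, 250 bases before the start, 5′ to 3′, with 2 cores in capitals that begin 129 and 109 bases before the start.
Hspb1: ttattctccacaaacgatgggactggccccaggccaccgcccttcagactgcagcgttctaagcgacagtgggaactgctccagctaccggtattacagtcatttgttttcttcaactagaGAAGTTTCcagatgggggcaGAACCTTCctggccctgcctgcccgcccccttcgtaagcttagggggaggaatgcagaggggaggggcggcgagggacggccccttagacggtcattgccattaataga
GAANNTTC, which reads the same on both strands, occurred in 9 of the 20 heat shock list genes with a window (45.0%), against 8.3% of all windows and 5.9% of those of genes tested. Genes called negative had it in 5.0% of windows and genes called positive in 5.7%. Members with the core and without a call include Hspb8, Hspd1 and Dnajb1. Over the 23 measured chaperone genes 7 were called negative and 1 positive, with equal medians of -0.30 in both cultures. Of 27 genes for endoplasmic reticulum chaperones and stress 1 was called negative and 1 positive, against 10.9% of all genes called, and the median gap stood at 0.37, 0.21 and 0.27 at days 1, 2 and 3. Hspa5, the chaperone BiP, fell by 0.94 in sandwich and 1.10 in monolayer, and stayed 1.65-fold higher in sandwich at day 3 against 1.48-fold at day 1, with a gap change of 0.16 (adjusted p = 0.666).

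The other reversed genes had little in common by function. Ugt2b1, a glucuronosyltransferase, had day 3 levels of 9.28, 9.45 and 9.02 in sandwich against 7.28, 7.46 and 7.25 in monolayer. At day 1 they were 6.66, 6.69 and 6.79 in sandwich against 7.40, 7.27 and 7.21 in monolayer. Sandwich was thus below monolayer at day 1 and above it at day 3 on every array, with gaps of -0.58, 0.47 and 1.92 at days 1, 2 and 3. Tsx rose in both cultures, by 3.83 in sandwich and 1.92 in monolayer, with day 3 levels of 9.84, 9.78 and 9.73 in sandwich against 9.22, 9.26 and 9.05 in monolayer. Its day 1 levels were 5.99, 5.57 and 6.29 in sandwich against 7.31, 7.07 and 7.40 in monolayer.

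Mbl2, a lectin that starts complement, and Acmsd, of tryptophan breakdown, also turned to the sandwich side. Their gaps were 0.45 and 0.86 at day 3 against -0.64 and -0.50 at day 1. Txnip, an inhibitor of thioredoxin and of glucose uptake, turned the other way, with -0.70 at day 3 against 0.67 at day 1, as it fell by 1.13 in sandwich. Pln, a regulator of the calcium pump in muscle, turned likewise by its named probe set, but its 2 other probe sets had gap changes between -0.25 and 0.03 that were not called, and the mean over probe sets gave -0.52 against -1.33.

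Some gaps of interferon and inflammation genes closed. Of interferon-induced genes 8 of 31 were called negative and 1 positive. In sandwich 18 members fell and 2 rose, and in monolayer 14 fell and 2 rose, with median changes of -0.43 and -0.27. Rsad2, an antiviral protein, had day 3 levels of 5.31, 5.40 and 5.04 in sandwich against 5.39, 5.33 and 4.91 in monolayer, which overlapped. At day 1 they were 7.65, 7.96 and 8.13 in sandwich against 6.85, 6.40 and 6.63 in monolayer, which did not. Usp18, a brake on interferon signalling, reversed, with a gap of -0.45 at day 3 against 0.55 at day 1.

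Chemokine and inflammation genes had 8 of 35 called positive and 3 negative. Cxcl10, a chemokine for T cells, rose by 0.58 in sandwich and fell by 0.75 in monolayer, and its gap of -1.04 at day 1 closed to 0.30 at day 3 (adjusted p = 0.213). Cxcl3, a chemokine for neutrophils, rose in both cultures, by 0.73 in sandwich and 2.91 in monolayer. Its 4 other probe sets had gap changes between -2.10 and 0.03, of which 2 were called, and the mean over probe sets gave -1.19 against -2.18. Ccl2, a chemokine for monocytes, rose by 1.69 in monolayer with a sandwich change of -0.36 that was not called. Scd2, a fatty acid desaturase outside the usual liver form, rose in both cultures, by 5.79 in sandwich and 4.41 in monolayer, with day 1 sandwich levels below 5.62, and its gap was 0.27 at day 3 against -1.11 at day 1. The call (adjusted p = 0.011) was lost in 1 of 22 alternatives, that with the mean over its probe sets, since its 3 other probe sets had gap changes between -0.08 and 0.16.

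Ribosomal and proteasome genes gave no calls, with 0 of 30 and 0 of 29 members, and median gap changes of 0.07 in both lists. At an unadjusted p under 0.05, 5267 probe sets of all 31042 passed for the gap change. Rplp0, of the ribosomal stalk, had a gap change of 0.12 (SE 0.097, adjusted p = 0.625).

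Markers of other liver cells were followed because the cultures may hold such cells. Of 18 macrophage markers 4 were called positive (Cd163, C1qb, C1qc and Mrc1) and none negative, each with a called rise in sandwich alone. The log2 of the summed level of that list was 11.55 to 11.68 in sandwich against 10.96 to 11.07 in monolayer at day 3, and 11.52 to 11.62 in sandwich against 11.20 to 11.30 in monolayer at day 1. Such a sum adds unlogged levels and so follows its brightest members. At day 1 Cd14, which was not called, stood at 10.57 in sandwich and 10.03 in monolayer. The list had 3 members below 5.62 in all 4 groups, and the called Cd163 was one of them. Its means were 5.35 in sandwich and 4.67 in monolayer at day 3, and 4.57 and 4.76 at day 1. The calls of C1qb, C1qc and Mrc1 were lost in 4, 6 and 9 of 22 alternatives, with adjusted p-values of at most 0.149.

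Of 18 endothelial markers 3 were called positive and 1 negative, while 12 lay below 5.62 in all 4 groups, Pecam1, Tek, Tie1, Lyve1 and Stab2 among them. The log2 of their summed level was 10.32 to 10.47 in sandwich against 9.81 to 9.91 in monolayer at day 3, and 9.62 to 9.69 in sandwich against 9.56 to 9.68 in monolayer at day 1. The list's median gap change was -0.02, so the sum does not describe the list as a whole. From day 1 to day 3 in sandwich, Rbp7 went from 5.03 to 8.67 and S1pr1 from 6.18 to 7.65. The 3 positive genes were among the largest gap changes of all. Rbp7, a retinol-binding protein, had day 3 levels of 8.91, 8.69 and 8.40 in sandwich against 6.48, 6.47 and 6.16 in monolayer, and day 1 levels of 5.34, 4.86 and 4.90 in sandwich against 6.10, 6.08 and 5.55 in monolayer. Clec14a, an endothelial lectin, and S1pr1, a receptor for sphingosine phosphate, rose by 2.57 and 1.47 in sandwich. Clec14a means went from 3.18 to 5.75 in sandwich and from 3.05 to 3.43 in monolayer. Only its sandwich day 3 mean lay above 5.62, so how far the others lay above background is unknown. The other S1pr1 probe set had a gap change of -0.03 that was not called, and the mean of both gave 1.07 against 2.16. Ltb, a lymphotoxin of lymphocytes, rose by 2.94 in sandwich, while none of 15 lymphocyte markers was called. Of stellate cell markers 1 of 18 was called (Reln, negative), and of bile duct markers 1 of 12 each way, against 10.9% of all genes called. Whether other cells had a part in these changes was not tested.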

How the data were processed

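Total RNA was labelled as biotin cRNA by an oligo(dT) T7 reaction and hybridised to Affymetrix arrays, per the labels' protocols. The deposited values are log2 intensities that the authors had already normalised with RMA, per the submitters' processing notes, which also name limma. They were used as deposited. After 57 array controls were dropped, 31042 probe sets entered a model with 1 mean per group over all 24 arrays in limma 3.58.1 (R 4.3.3), two-sided, with Benjamini-Hochberg adjustment over all probe sets within each contrast and a threshold of 0.05. The test was checked on simulated data with noise drawn independently for each probe set and array. That check does not cover deviations shared by arrays or by probe sets. Of the probe sets, 20826 had 1 gene symbol in the platform annotation, 436 had several and 9780 had none. Each gene is represented by its single-symbol probe set of highest mean over all arrays, and 4525 of 14217 genes had several probe sets. The number of arrays, 3 per group, limits the precision.

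Genes were named by rule: the 15 largest called gap changes each way, 10 reversed genes, 8 narrowed or closed genes, the 4 members of each list with the smallest adjusted p, the 5 largest each way whose cultures changed in opposite directions, and a fixed set. That set held well-known genes of hepatocytes, bile duct and mesenchymal cells, the cell cycle, chaperones, and actin and YAP. Others named in the promoter and marker passages were chosen after their values were seen. The contrast, the 38 gene lists and the 7 marker lists were chosen with earlier results of these data known, so none of them is independent of those results. Alternatives covered normalization, array weights, an intensity trend, a filter on dim probe sets, covariates, the mean over probe sets, a replicate block and each array left out. Promoter windows came from RefSeq (GRCr8).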

Additional observations from a re-analysis of the deposited data

Results flagged for a closer look

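The gap change is itself a test of whether the cultures' changes differ, and 2269 probe sets passed it, among them the probe sets of 177 of the 213 genes named by rule. That share was raised by the naming rule, which mostly picked genes by their gap change. Listed here are those of the named genes whose gap reversed or whose cultures moved in opposite directions by the largest amounts. Groups of 3 arrays are too small for a test of single outlying arrays.

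On the side where sandwich gained, the gap changes were 2.50 for Ugt2b1, 2.17 for Slc10a1, 2.16 for S1pr1, 2.03 for Hrg, 2.01 for Cyp3a23-3a1, 1.98 for Acss2 and 1.92 for Tsx. Smaller ones were 1.36 for Acmsd, 1.24 for Ripk2, a kinase of innate immune signalling, 1.09 for Mbl2 and 0.93 for Stap2, an adaptor protein.

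On the side where sandwich lost, they were -2.41 for Msn, -2.24 for Hspb1, -2.14 for Lipc, -1.90 for Stmn1 and -1.89 for Cd69. The remaining ones were -1.37 for Txnip, -1.33 for Pln and -0.99 for Usp18. Lipc, hepatic lipase, had day 3 levels of 7.68, 7.85 and 7.66 in sandwich against 10.02, 9.90 and 10.19 in monolayer, and day 1 levels of 9.35, 8.99 and 9.46 in sandwich against 9.52, 9.51 and 9.28 in monolayer. It is a liver enzyme that went against the direction of most called metabolic genes named here.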

How the results depend on the processing

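The gap change was called for 1738 to 2241 probe sets with each array left out, the lowest without monolayer day 3 replicate 3, and for 2044 to 2959 under the other settings, against 2269 as reported. Its split was 1295 positive and 974 negative as reported. It was 1305 and 739 with arrays centred on their medians, 1477 and 1317 with the interquartile range as a covariate, and 931 and 891 without sandwich day 3 replicate 2. Of the 177 called genes named by rule, 156 were called in every alternative, 21 lost the call in at least 1, and none of the 213 reversed. Most of the 213 were named for a large gap change or for the smallest adjusted p-values of their list. These counts therefore do not describe the typical called gene. The steps from day 1 to 2 (168 probe sets) and 2 to 3 (386) became 491 and 1002 with array weights and 306 and 601 with the interquartile range as a covariate. Array weights also gave 933 probe sets for the day 1 gap (552 as reported), 158 widened, 2 narrowed, 58 closed and 35 reversed genes and 122 with neither gap called. Narrowed genes numbered 2 with only the arrays of the days compared, 2 with an intensity trend, 3 with the interquartile range and 0 with the beta-actin covariate. That covariate gave 10 reversed genes, 126 with neither gap called and 28 with neither culture's change called, and the filter on dim probe sets 32 reversed genes. The causes were not tested. With each array left out, the ranges were 322 to 608 for the day 1 gap, 65 to 99 widened, 21 to 37 closed, 0 to 2 narrowed, 39 to 88 with neither gap called and 23 to 57 with neither culture's change called. The day 1 gap was called for 366, 322 and 326 probe sets without monolayer day 1 replicate 1, 2 and 3, and for 339 and 331 without sandwich day 1 replicate 1 and 2. Its split was 178 higher and 374 lower in sandwich as reported, 257 and 335 after quantile normalization, and 351 and 348 with the interquartile range. The step from day 1 to 2 split into 55 positive and 113 negative as reported, 234 and 257 with array weights, and 33 and 120 without sandwich day 1 replicate 2.

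Deviations of same-number arrays had a median correlation of 0.12 over 18 pairs (range -0.27 to 0.46), against -0.09 over 36 pairs with different numbers. Since 10 of the 18 were above 0.1, not all, and 5 of 12 arrays correlated best with their own number, the numbers were not taken to pair the arrays. Pairs of replicate 1 arrays were all positive, however, between 0.064 and 0.459. In every group of the series, replicate 1 also had the largest 3' minus 5' difference of the Gapdh control probes. Whether arrays of the same number shared a preparation was not tested. With the replicate block, 2800 probe sets were called for the gap change, including all 2269, and 261 and 601 for the single-day steps.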
